A study of Mus musculus with 9 samples.

Results

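Non-coding genes that lie wholly within a protein-coding gene were examined in the prefrontal cortex of WT mice, Rag1-/- mice given vehicle and Rag1-/- mice given WT EVs. A gene was taken when GENCODE did not class it as protein-coding, when its span lay inside the span of a coding gene on either strand, when none of its exon bases was shared with any other gene, and when it held at least 20 reads summed over the 9 libraries. Malat1, Neat1, Meg3, Rian, Mirg, Miat, Snhg11 and Snhg14 were set aside by name, and 0 of these 8 would have met the other conditions. The conditions gave 3184 members of 56246 genes in the counts table, of which 23691 genes held at least 20 reads. The members were thus chosen by their position and by their reads summed over all libraries and groups, so that they were counted at all is no result. Without the minimum of 20 reads 7210 genes met the positional conditions, of which 1410 held 0 reads and 2616 held 1 to 19. Just inside the minimum stood 4930513N20Rik, 4933425D22Rik and AC102268.1 with 20 reads each, and just outside it 0610012D04Rik, 4930518C09Rik and AC102132.2 with 19 each. WT replicate 6 alone carried 1089 members over the minimum, and 2095 members reached 20 reads without it.

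Introns are transcribed with the gene that holds them and are then cut out, and most are degraded within the nucleus. Some introns carry RNAs that outlive them: small nucleolar RNAs (snoRNAs) and small Cajal body RNAs (scaRNAs), which guide modification of ribosomal and spliceosomal RNA, are trimmed out of the excised intron of their host in mammals. Other genes inside introns have promoters of their own, such as Peg13, an imprinted long non-coding RNA inside Trappc9 that is expressed from the paternal allele in mouse brain. Still others are gene models that GENCODE types as TEC, a class that still awaits experimental evidence. A read that falls in such a gene can come from its own transcript or from the unspliced transcript of its host, and where reads are counted without regard to strand these cannot be told apart, whichever strand the inner gene is on.

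Rag1-/- mice lack a recombinase needed for T and B cells, and the study compared their cortex with that of WT mice and asked what injected WT EVs (extracellular vesicles, here from WT mouse blood) changed. The mice were adult males on a C57BL/6 background, perfused with PBS, and RNA came from bulk prefrontal cortex. There were 3 libraries from 3 mice for each of WT, Rag1-/- + vehicle and Rag1-/- + WT EVs. The vehicle was medium, which WT mice were given too according to the supplement, although their labels list no treatment.

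Libraries held 32.0 to 41.2 M (1e6) reads in genes. WT replicate 6 stood apart: 30.1% of its reads lay outside annotated exons, against 6.54% to 11.2% in the other 8 libraries. Counts of calls and the members named as called in vehicle against WT are therefore also given without it where they are first described. Rag1 itself was counted at 0.232, 0.842 and 1.09 CPM (counts per 1e6 gene reads, after TMM scaling) in the libraries labelled WT and at 6.26 to 7.82 CPM in the 6 labelled Rag1-/-. It was thus higher where the gene is said to be disrupted, and counts over the whole gene do not show which part of it was read, so they do not check the genotype. Groups are named as labelled throughout. Each of the 6 excitatory neuron markers was detected, with a summed level of 5500 to 7534 CPM, while the 3 olfactory bulb markers summed to 1.10 to 3.96 CPM.

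By GENCODE type the members were 1279 TEC genes, 763 processed pseudogenes, 500 antisense genes, 201 sense intronic genes, 89 snoRNAs, 67 snRNAs, 58 miRNA genes, 55 lincRNAs, 43 miscellaneous RNAs, 11 scaRNAs and smaller types. They lay in 1985 coding genes, 1881 of them on the strand of every gene that held them, 1280 on the opposite strand and 23 inside genes of both strands. A single exon block made up 2466 members, and 718 had more. The coding genes holding the most members by this count were Kcnip4 (27), Gm20388 (25), Cntnap2 (23), Dlg2 (23) and Adgrb3 (21), of which Kcnip4 (a potassium channel subunit), Cntnap2 (a neurexin-family adhesion protein), Dlg2 (a postsynaptic scaffold) and Adgrb3 (an adhesion receptor) are long neuronal genes. Gm20388 is a coding gene model and held 0 reads in every library, so its members are inside it only on the map. In all, 35 members had a host with 0 reads and 117 a host averaging under 1 CPM.

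Sequences of 3 sets of members are shown because the results turn on them, all from the GENCODE M21 transcripts (GRCm38) in the direction of the transcript. The first is the most abundant member, Gm23935, a gene typed as miRNA at chr16:11144125-11144181 on the + strand, inside an intron of Zc3h7a, which runs the other way.
Gm23935: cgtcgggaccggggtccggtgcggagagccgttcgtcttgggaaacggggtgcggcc
The same 57 bases are the whole of 2 other annotated genes. They are the member Gm24270 (chr9:56223715-56223771, - strand, in Peak1) and Gm24245 (chr4:139338304-139338360, + strand), which is not a member. A read wholly within these 57 bases cannot be placed by sequence, and what longer reads show of the bases beyond them was not examined. The search for copies covered annotated transcripts only. Which RNA the reads counted to Gm23935 came from was not tested.

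The second set is the 4 small RNAs that were higher in vehicle than in WT libraries (below). Box H/ACA RNAs, a class of snoRNA and scaRNA that guides pseudouridylation, carry the letters ACA 3 bases before their 3' end, and these are in capitals where found. They come from introns of Nap1l1 (chr10:111481493-111481636, + strand), Bud23 (chr5:135053988-135054116, - strand), Tomm20 (chr8:126944847-126944980, - strand) and Lrch2 (chrX:147484293-147484421, - strand), in that order.
Gm25117: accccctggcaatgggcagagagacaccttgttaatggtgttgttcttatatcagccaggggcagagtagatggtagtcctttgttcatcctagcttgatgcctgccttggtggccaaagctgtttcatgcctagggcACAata
Gm25492: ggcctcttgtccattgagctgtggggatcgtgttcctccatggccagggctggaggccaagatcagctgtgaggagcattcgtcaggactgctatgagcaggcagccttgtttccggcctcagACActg
Gm26397: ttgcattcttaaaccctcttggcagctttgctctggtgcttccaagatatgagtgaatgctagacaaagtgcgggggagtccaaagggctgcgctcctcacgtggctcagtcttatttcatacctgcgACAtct
Gm25107: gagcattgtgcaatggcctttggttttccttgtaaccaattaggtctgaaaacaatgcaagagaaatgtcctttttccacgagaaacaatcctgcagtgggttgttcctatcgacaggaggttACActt
Each of the 4 held ACA at that place. On the transcript strand of the longest transcript it stood there in 46 of the 100 snoRNA and scaRNA members (46%), in 3.02% of the other members and in 2.8% of coding genes with 20 reads. The boxes of the other snoRNA class, TGATGA in the first 20 bases together with CTGA in the last 15, were found in 12 of the 100 and in 0.0649% of other members. Of these 4, Gm25492 is typed as a scaRNA and the others as snoRNAs.

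The third set is the last 60 bases of longer members, because mRNA-like transcripts usually carry the polyadenylation signal AATAAA shortly before their end. AATAAA within the last 40 bases and runs of 6 or more A within the last 30 are in capitals (in the RNA the T is a U, and a run can overlap the signal). Gm43946 (chr6:101347945-101348830, - strand, in Pdzrn3), C230031I18Rik (chr3:127180276-127183973, - strand, in Ank2), 1700008B11Rik (chr5:121835195-121835828, + strand, in Sh2b3), A930006L05Rik (chr9:96705828-96711449, + strand, in Zbtb38), Gm43133 (chr5:123561525-123561987, - strand, in Vps33a) and 4921534H16Rik (chr9:98003420-98012175, + strand, in Clstn2) were the 6 members with the smallest p among those lower in vehicle libraries. Peg13 (chr15:72805600-72810324, - strand, in Trappc9), B930095G15Rik (chr14:121248706-121253971, + strand, in Farp1) and Gm45640 (chr8:90876581-90878476, + strand, in Chd9) were the most abundant members longer than small RNAs.
Gm43946: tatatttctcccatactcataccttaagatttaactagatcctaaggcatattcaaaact
C230031I18Rik: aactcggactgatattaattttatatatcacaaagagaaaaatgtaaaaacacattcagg
1700008B11Rik: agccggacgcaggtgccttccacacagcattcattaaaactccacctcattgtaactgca
A930006L05Rik: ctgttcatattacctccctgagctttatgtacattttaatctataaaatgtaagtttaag
Gm43133: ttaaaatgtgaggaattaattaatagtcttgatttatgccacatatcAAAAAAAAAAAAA
4921534H16Rik: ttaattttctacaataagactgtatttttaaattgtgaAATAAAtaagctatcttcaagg
Peg13: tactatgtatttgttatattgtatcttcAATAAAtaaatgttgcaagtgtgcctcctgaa
B930095G15Rik: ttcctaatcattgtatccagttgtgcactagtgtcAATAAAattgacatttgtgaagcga
Gm45640: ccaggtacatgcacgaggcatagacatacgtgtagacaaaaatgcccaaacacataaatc
The signal AATAAA stood in 1 of the 6 members that were lower, 4921534H16Rik, and the end of Gm43133 is a run of A. Only this exact form was searched for, so variants of it, such as the attaaa near the end of 1700008B11Rik, were not counted. Peg13 and B930095G15Rik carried the signal and Gm45640 did not. By the same search it was in 14.5% of all members, 14.5% of TEC members, 34.6% of antisense members and 40% of lincRNA members, against 24.5% of non-coding genes outside coding genes, 33.1% of the TEC genes there and 58.1% of coding genes with 20 reads. A run of 6 A in the last 30 bases was found in 5.53% of members and 8.38% of coding genes.

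The members were counted at a low level, and the level differed between libraries far more than that of their hosts. Over WT replicates 1, 3 and 6 the median member had 0.206, 0.105 and 0.823 CPM. In vehicle libraries it had 0.0551, 0.0532 and 0.0471 CPM, and after WT EVs, in replicates 2, 3 and 5, 0.0880, 0.0918 and 0.196 CPM. A count of 1 read stood at 0.0275, 0.0266 and 0.0236 CPM in the vehicle libraries, so these low medians rest on very few reads. The 3 vehicle libraries were the lowest of all 9 and did not overlap the other groups, while the EV libraries overlapped WT. Over the same libraries the median of the coding genes that hold members stayed between 45.0 and 48.4 CPM, and that of 2663 non-coding genes outside coding genes between 0.165 and 0.386 CPM. Members with 0 reads numbered 18 in WT replicate 6 and 276 to 753 in the other libraries. As a level per base, members without Gm23935 summed to 8.34% of the level of their hosts in WT replicate 6, 2.67% and 1.98% in the other WT libraries, 1.69% to 1.76% in vehicle and 2.05% to 2.74% after WT EVs.

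**Figure D1:**
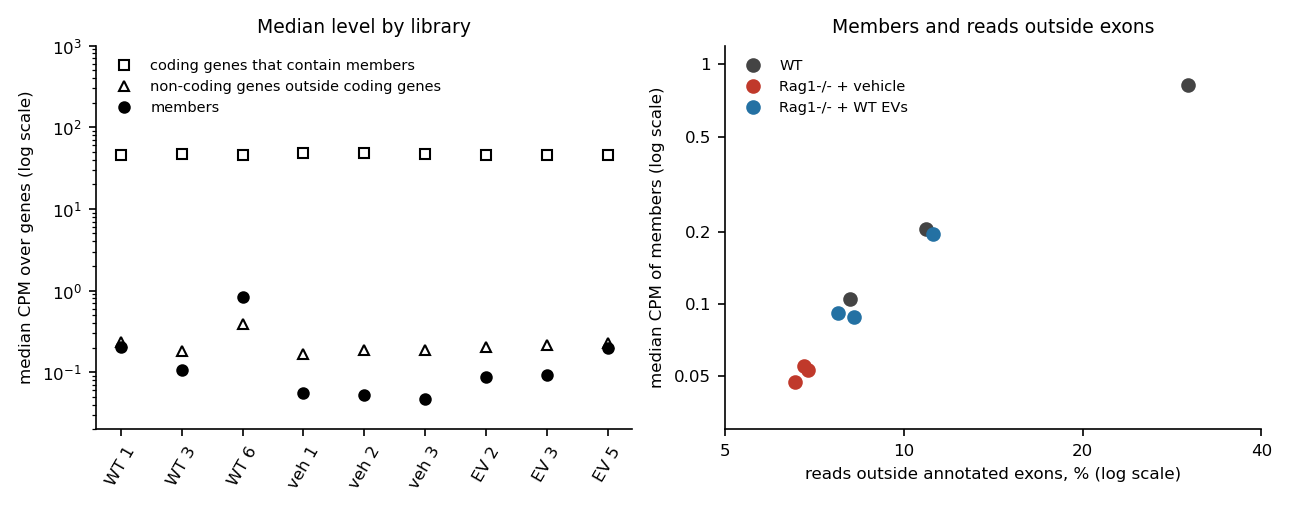
Left, median CPM (log scale) in each library of the members, of non-coding genes outside coding genes and of the coding genes that hold members. Right, median member CPM against the percentage of reads outside annotated exons (both log scales), 1 point a library. The 3 vehicle libraries are lowest on both axes and WT replicate 6, at 30.1% and 0.823 CPM, is highest on both.

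Because 1089 members met the minimum only through WT replicate 6, the median was also taken over the 2095 that met it without that library. It was then 0.324, 0.184 and 1.31 CPM in WT, 0.0826, 0.106 and 0.0942 CPM in vehicle and 0.147, 0.184 and 0.294 CPM after WT EVs. The vehicle libraries were again the lowest, and these medians are descriptions with no test, since the minimum used the same reads. The summed share of gene reads that fell in members is led by Gm23935 and did not separate any pair of groups. It was 0.259%, 0.283% and 0.573% in WT, 0.195%, 0.299% and 0.290% in vehicle and 0.354%, 0.248% and 0.307% after WT EVs, and the exact permutation p over the 3 comparisons was 0.4 to 0.8 before adjustment and 0.8 to 0.9 after it over the 12 tests of sums and ratios. Without Gm23935 the share was 0.176%, 0.133% and 0.541% in WT, 0.119%, 0.115% and 0.117% in vehicle and 0.124%, 0.127% and 0.157% after WT EVs. The vehicle libraries were then below every other library. None of the 12 sums and ratios passed, with exact p from 0.2 to 0.9. They too were taken over members chosen by the same reads, so no conclusion is drawn from them.

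The reads outside exons moved with the members. They took 10.9%, 8.11% and 30.1% of reads in WT, 6.78%, 6.90% and 6.54% in vehicle and 8.24%, 7.73% and 11.2% after WT EVs. The order of the 9 libraries by this share and by median member CPM was nearly the same. Reads outside exons include those in introns that no annotated gene covers. With their log2 share as a covariate in edgeR, the median member difference between vehicle and WT was -0.48 and 0 members passed (135 at an unadjusted p under 0.05), against -2.73 and 471 without it, while 0.078% of all genes were called higher and 0.529% lower. Every vehicle library lay below every other library in this share, so the fit cannot separate the share from the group. No conclusion is drawn from it. What raised the share and the members' level in a library was not tested.

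WT replicate 6 was the highest library in 2827 members (88.8%). Among the 2095 members that reached 20 reads without it, it was highest in 1783 (85.1%). To set members against like genes with no minimum of reads, all TEC genes inside coding genes (1651) were compared with all TEC genes outside them (1132). The genes were thus not chosen by reads, but the TEC type was chosen after seeing the data. Inside, their summed level was 0.838 RPKM (CPM per kilobase of exon, on unscaled library totals) in WT replicate 6 and 0.066 to 0.183 in the other 8 libraries. Outside, it was 0.339 and 0.154 to 0.204. The ratio of inside to outside was lower in vehicle than in WT by 1.55 on the log2 scale (exact permutation p = 0.1). It was higher after WT EVs than in vehicle by 0.776 (exact permutation p = 0.1). In both cases the groups did not overlap, and 0.1 is the smallest p that 3 against 3 libraries allow. Because the type was chosen from these data and the ratio was not among the planned tests, neither p was adjusted. The differences are descriptions, and no conclusion is drawn from the p. Processed pseudogenes inside coding genes stood at 0.537 in WT replicate 6 against 0.0999 to 0.168 elsewhere, and those outside at 0.0996 against 0.0607 to 0.0824.

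**Figure D2:**
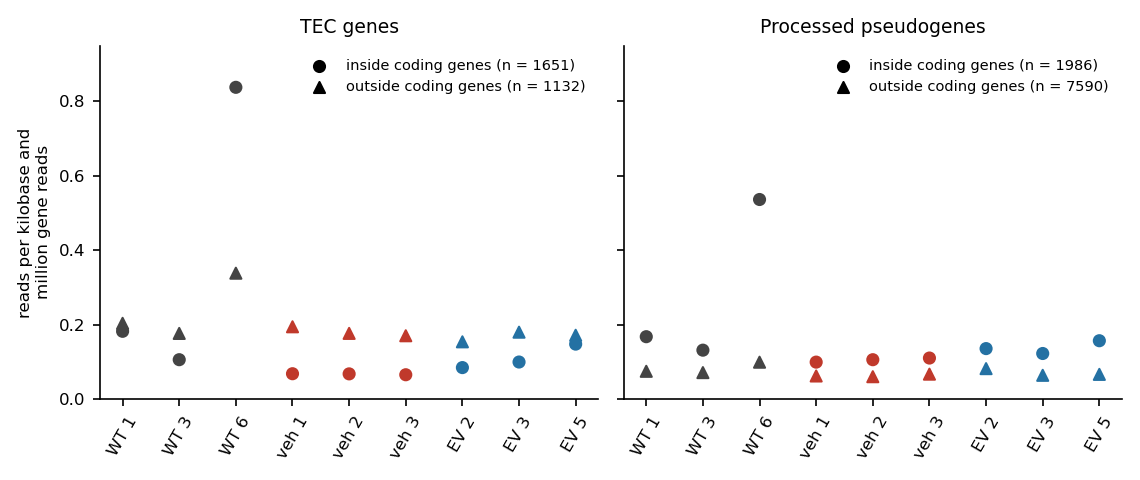
Summed RPKM, by library, of all TEC genes (left) and all processed pseudogenes (right) inside coding genes (circles) and outside them (triangles), with no minimum of reads; grey is WT, red is Rag1-/- + vehicle and blue is Rag1-/- + WT EVs. Inside TEC genes reach 0.838 in WT replicate 6 and lie at 0.066 to 0.0687 in vehicle libraries.

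The order of libraries by summed level differed between types. TEC members summed to 0.213, 0.124 and 0.980 RPKM in WT, 0.0804, 0.0800 and 0.0770 in vehicle and 0.0995, 0.117 and 0.173 after WT EVs. The 3 vehicle libraries were the lowest and close to each other. Antisense members ran from 0.138 to 0.274 in 8 libraries and reached 1.03 in WT replicate 6, although 89.1% of TEC members and 2.2% of antisense members lay on the strand of their host. lincRNA members stood at 0.416 to 0.533 and then 1.16, with vehicle and EV libraries overlapping. Sense intronic members summed to 1.27, 1.28 and 1.94 in WT, 1.46, 1.28 and 1.38 in vehicle and 1.13, 1.18 and 1.097 after WT EVs, so that the EV libraries were the lowest in this sum. The sum includes the abundant Peg13 and B930095G15Rik. The median sense intronic member had 0.235, 0.105 and 1.003 CPM in WT and 0.0551, 0.0797 and 0.0707 in vehicle. After WT EVs it had 0.117, 0.153 and 0.228 CPM, so that by median the vehicle libraries were the lowest. In WT replicate 6 TEC, antisense and lincRNA members, with processed pseudogenes at 1.06, lay between 0.980 and 1.16, while in the other 8 libraries together they ran from 0.077 to 0.533. snoRNA members summed to 5.29 in WT replicate 6, within their range of 4.06 to 6.83 elsewhere, and scaRNA members to 49.4 within 33.4 to 62.3. By median, however, snoRNA members were highest in WT replicate 6 too, at 0.412 CPM against 0.0797 to 0.163 elsewhere. The median scaRNA member had 0.566 CPM there, within 0.495 to 1.17 elsewhere.

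**Figure D3:**
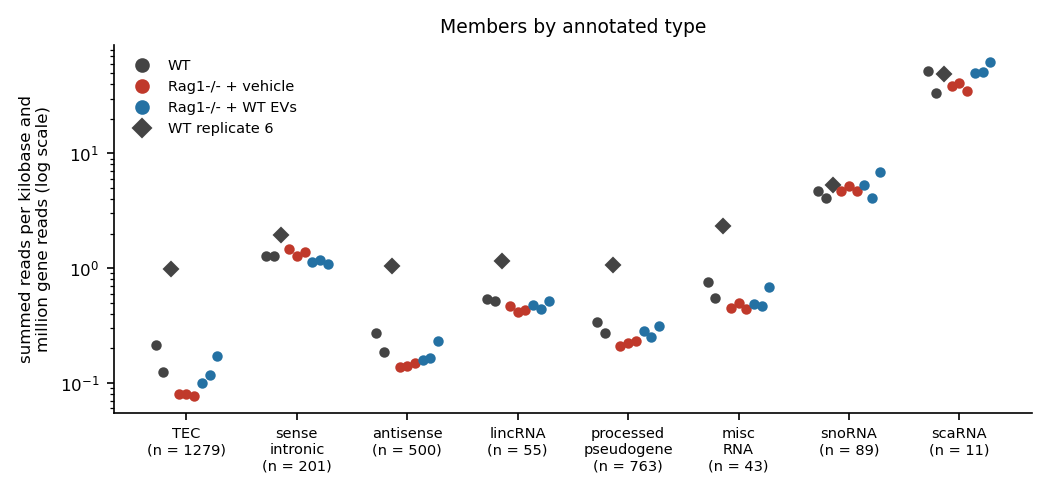
Summed RPKM (log scale) of the members of 8 annotated types, 1 point a library, with WT replicate 6 as a diamond and Gm23935 not included. TEC, antisense, lincRNA and processed pseudogene members lie between 0.980 and 1.16 in WT replicate 6, above the other libraries. The sums of the snoRNA and scaRNA members in that library lie inside the range of the others, although the median snoRNA member was highest there. Members were chosen with the reads of WT replicate 6 included.

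The level of a TEC member went with that of its host. Across the 1279 TEC members the Spearman correlation of member and host level per kilobase was 0.475 in WT replicate 6, 0.366 and 0.327 in the other WT libraries, 0.204 to 0.277 in vehicle and 0.226 to 0.264 after WT EVs. These are descriptions, since members of a library share its depth and members of a host share the host. The median TEC member stood at 10.4% of its host's level in WT replicate 6, 1.6% and 0.772% in WT replicates 1 and 3, 0.348% to 0.412% in vehicle and 0.565% to 1.74% after WT EVs. In hosts over 100 CPM the 492 TEC members summed to 1.37 RPKM in WT replicate 6 and 0.112 to 0.298 elsewhere, and in hosts of 1 to 10 CPM the 99 there summed to 0.384 and 0.0298 to 0.0847. The 677 in hosts of 10 to 100 CPM summed to 0.789 and 0.0584 to 0.171, and the 11 in hosts under 1 CPM to 0.465 and 0.0328 to 0.159, above those in hosts of 1 to 10 CPM in WT replicate 6. The ratio of WT replicate 6 to the mean of the other 8, from the lowest hosts to the highest, was 6.51, 7.94, 8.27 and 8.06.

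Between Rag1-/- + vehicle and WT, 5 members were higher and 466 lower in edgeR's quasi-likelihood test (adjusted p under 0.05 over 17948 genes). Only 1049 members (32.9%) passed the filter on low counts, and 2135 did not, so these are counts over the members that passed. Of all genes tested, 6.28% were called higher and 9.71% lower. The median log2 difference of the tested members was -2.73 and that of all genes tested -0.03. Members made up 5.84% of genes tested and 26.7% of those called lower. The filter favours members that are high in WT: 511 of the 1049 passed it in 3 or more of the 6 libraries labelled Rag1-/- and 21 in none of those, and 18 of the 21 were called lower. Among the 511, 5 were higher and 188 lower, with a median of -1.55. The WT and vehicle libraries did not overlap, with vehicle lower, in 540 members (51.5%, against 19.8% of all genes tested) and with vehicle higher in 22 (2.1% against 18.3%).

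The count of calls depended on single libraries. Without WT replicate 6, 4 members were higher and 92 lower of 1026 tested, with a median of -1.20, while 3.31% of all genes were called higher and 4.9% lower, and all 92 were among the 466. Without WT replicate 3, 13 were higher and 1106 lower of 1467, against 17.4% and 17.6% of all genes. Without WT replicate 1, or without any 1 of the 3 vehicle libraries, 0 passed, as did only 0 to 3 of all genes tested, although 888 to 952 members had an unadjusted p under 0.05 there and the median stayed between -2.76 and -3.01. With the 6 libraries of this comparison alone 0 passed and 490 had an unadjusted p under 0.05, and no gene of any kind passed. DESeq2 on all 9 libraries called 9 members higher and 1093 lower of 3128, against 6.01% and 7.38% of all genes. Without EV replicate 3, a library that is in neither group, 3 were higher and 188 lower of 1505, against 3.43% and 4.07% of all genes.

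**Figure D4:**
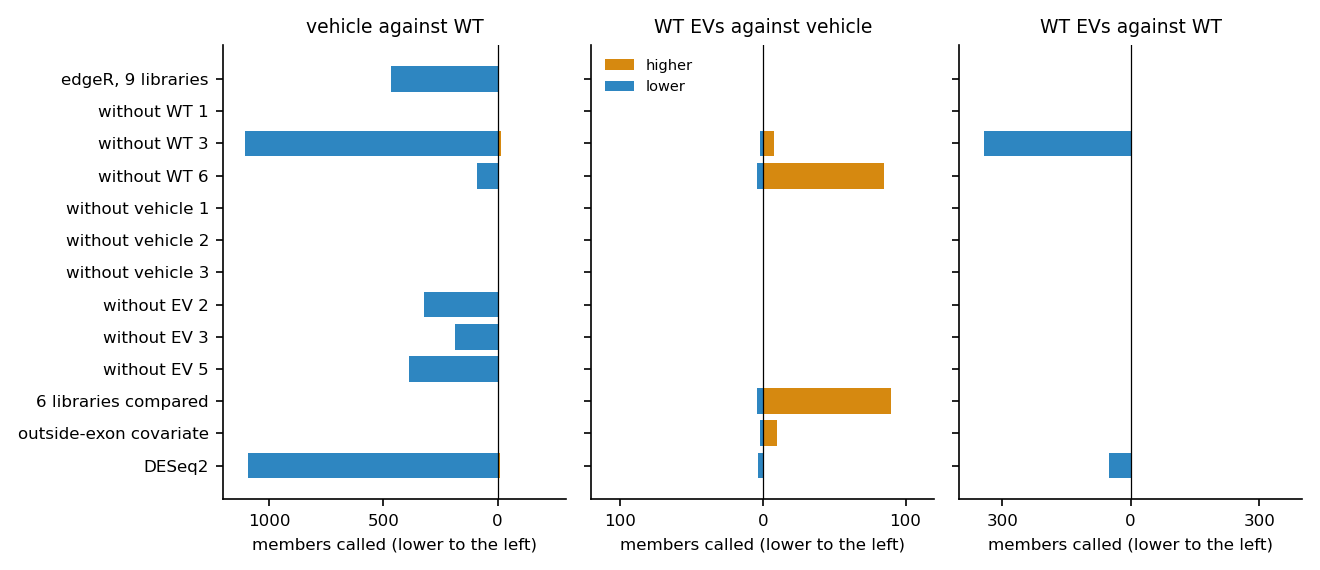
Members called at an adjusted p under 0.05 in each comparison, higher to the right and lower to the left of 0, under the 9-library edgeR fit, with each library left out, and under 3 other fits; the horizontal scales differ between panels. For vehicle against WT the count runs from 0 to 1119 over these fits, and for WT EVs against vehicle from 0 to 94.

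Members called lower were mostly TEC genes. In vehicle against WT, 357 of 595 tested TEC members were lower and 0 higher (median -3.10), as were 46 of 131 antisense members (-2.19), 34 of 79 sense intronic members (-2.33, with Peg13 the 1 higher) and 15 of 123 processed pseudogenes (-0.89). Of 30 tested snoRNAs 3 were higher and 2 lower (median 0.54), and of 6 scaRNAs 1 was higher and 0 lower (-0.25). On the strand of their host 369 of 739 were lower and on the opposite strand 95 of 304. By length, 338 of 591 members of at least 1895 exonic bases were lower, against 20 of 150 of at most 661. By host, 256 of 442 in hosts averaging at least 105 CPM were lower, against 63 of 286 in hosts of at most 35.4 CPM. Without WT replicate 6 the lower calls were 70 of 581 TEC, 12 of 130 antisense and 0 of 120 processed pseudogene members. They were then 71 of 721 on the host's strand and 21 of 299 on the opposite strand. By length they were 73 of 581 long and 3 of 148 short members, and by host 54 of 429 in the high and 7 of 285 in the low bin. Strand goes with length: the median same-strand member had 1664 exonic bases and the median opposite-strand member 733.5. These splits were not tested against each other.

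The 6 named members that were lower had few reads in vehicle libraries. Of these, C230031I18Rik and A930006L05Rik passed the filter, which asks for 3 libraries, in 3 libraries labelled Rag1-/-. The other 4 passed it only through WT, where they are high, so that they had to differ, and their values are given as a description with no p. Gm43946, inside Pdzrn3 (an E3 ubiquitin ligase), had 16, 14 and 64 reads in WT, 1 in each vehicle library and 4, 3 and 7 after WT EVs. Its log2 difference was -4.83 (SE 0.81), and -3.85 without WT replicate 6, while Pdzrn3 itself stood at 35.6 to 54.7 CPM in all libraries. The WT and vehicle libraries did not overlap, and the EV libraries lay between them.

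C230031I18Rik, inside Ank2 (ankyrin-B, a membrane scaffold of neurons and heart), had 46, 17 and 121 reads in WT, 3, 4 and 7 in vehicle and 11, 11 and 20 after WT EVs, a difference of -3.75 (SE 0.72, edgeR adjusted p = 0.0208). Without WT replicate 6 it was -2.87 (edgeR adjusted p = 0.0167), and its host ran from 1051.5 to 1623 CPM with a log2 difference of 0.07. 1700008B11Rik, antisense to Sh2b3 (an adaptor that damps cytokine signalling), had 11, 11 and 12 reads in WT, 0, 1 and 0 in vehicle and 1, 4 and 3 after WT EVs. WT replicate 6 did not stand out for it, and its fitted difference of -4.68, with and without that library, rests on a single read in the vehicle group.

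A930006L05Rik, antisense to Zbtb38 (a methyl-CpG binding protein), had 37, 22 and 188 reads in WT, 6, 5 and 6 in vehicle and 20, 23 and 18 after WT EVs (-3.86, SE 0.74, edgeR adjusted p = 0.0208). Gm43133, inside Vps33a (a subunit of vesicle tethering complexes), had 11, 14 and 24, then 2, 2 and 3, then 5, 4 and 5 (-2.80, SE 0.54). 4921534H16Rik, antisense to Clstn2 (a postsynaptic calsyntenin), had 36, 14 and 218, then 2, 4 and 3, then 7, 11 and 12 (-4.86, SE 0.96), while Clstn2 was higher in vehicle by 0.50 (edgeR adjusted p = 0.0373). In these 3 every vehicle library was below every WT and every EV library by CPM, while the EV libraries overlapped WT for A930006L05Rik and 4921534H16Rik and lay below WT for Gm43133. Without WT replicate 6 their differences were -2.48 (edgeR adjusted p = 0.0117), -2.46 and -3.14 in the order given.

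The 5 members that were higher in vehicle than in WT were the 4 small RNAs shown above and Peg13. Gm25117, in Nap1l1 (a histone chaperone), had 1.06, 1.08 and 0.540 CPM in WT, 3.11, 6.59 and 3.96 in vehicle and 1.85, 1.41 and 3.26 after WT EVs, on 21 to 248 reads a library (2.35, SE 0.40, edgeR adjusted p = 0.0174). Gm25492, in Bud23 (an rRNA methyltransferase), had 1.47, 0.9997 and 0.463, then 3.06, 2.87 and 2.66, then 2.58, 1.16 and 2.64 CPM (1.55, SE 0.41, edgeR adjusted p = 0.0328). Their hosts differed by 0.16 and 0.13 (edgeR adjusted p = 0.212 and 0.478). Both passed without WT replicate 6 too (2.09 and 1.21, edgeR adjusted p = 0.0104 and 0.0372).

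Gm26397, in Tomm20 (a mitochondrial import receptor), had 0.824, 1.76 and 0.901 CPM in WT, 2.64, 2.74 and 2.33 in vehicle and 1.35, 0.735 and 1.27 after WT EVs (1.14, SE 0.35, edgeR adjusted p = 0.0475). Gm25107, in Lrch2, had 2, 16 and 11 reads in WT, 28, 35 and 43 in vehicle and 22, 14 and 22 after WT EVs (1.80, SE 0.56, edgeR adjusted p = 0.0495). In both, WT and vehicle libraries did not overlap. Neither passed without WT replicate 6 (0.98 and 1.87, edgeR adjusted p = 0.0757 and 0.0562).

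Peg13 was the second most abundant member, at 254, 285 and 189 CPM in WT, 379, 328 and 349 in vehicle and 264, 278 and 229 after WT EVs. It was higher in vehicle than in WT by 0.54 (SE 0.14, edgeR adjusted p = 0.0327), and by 0.39 without WT replicate 6 (edgeR adjusted p = 0.0411). After WT EVs every library was below every vehicle library, with a difference of -0.46 that did not pass (SE 0.14, edgeR adjusted p = 0.0896). Trappc9, its host, which encodes a subunit of a vesicle tethering complex, stood at 48.0 to 73.9 CPM and differed between vehicle and WT by 0.34 (edgeR adjusted p = 0.0525). Since strand was not used and both lie on the same strand, intronic Trappc9 reads within Peg13 were counted to it.

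Gm23935, the most abundant member, was read 434252 times, at 828, 1440.5 and 304 CPM in WT, 755, 1901 and 1677.5 in vehicle and 2366, 1246 and 1565 after WT EVs. The groups overlapped and its differences of 0.75, 0.26 and 1.009 did not pass (edgeR adjusted p = 0.28, 0.777 and 0.319). Its copy Gm24270 had 2.77, 7.02 and 3.91, then 2.04, 8.45 and 4.90, then 10.9, 5.30 and 6.23 CPM. Both were highest in EV replicate 2.

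Other abundant members kept closer to a single level. B930095G15Rik, a sense intronic gene in Farp1 (a RhoGEF of synapses), had 108, 101 and 121 CPM in WT, 97.8, 101 and 90.0 in vehicle and 99.4, 98.8 and 101 after WT EVs. Its highest library was 1.34 times its lowest, and among the 229 members averaging at least 1 CPM this ratio ran from 1.28 (A330074K22Rik, 4.10 to 5.25 CPM) to 291 (Gm43953, in Pdzrn3, 0.0275 to 8.002 CPM), with a median of 13.9. Of the 229, 1 held 0 reads in a library and has no ratio. Gm42732, a TEC gene in Ociad1, had 21.2 to 34.9 CPM, and Gm13509, a processed pseudogene in Mbd5, 14.5 to 28.2 CPM. Gm45640, a TEC gene in Chd9 (a chromodomain helicase), had 39.8, 34.8 and 57.2, then 28.7, 24.02 and 21.9, then 32.5, 33.8 and 30.04 CPM. It was lower in vehicle than in WT (-0.82, SE 0.17, edgeR adjusted p = 0.0225, and -0.59 with 0.0137 without WT replicate 6), with the EV libraries between the groups.

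**Figure D5:**
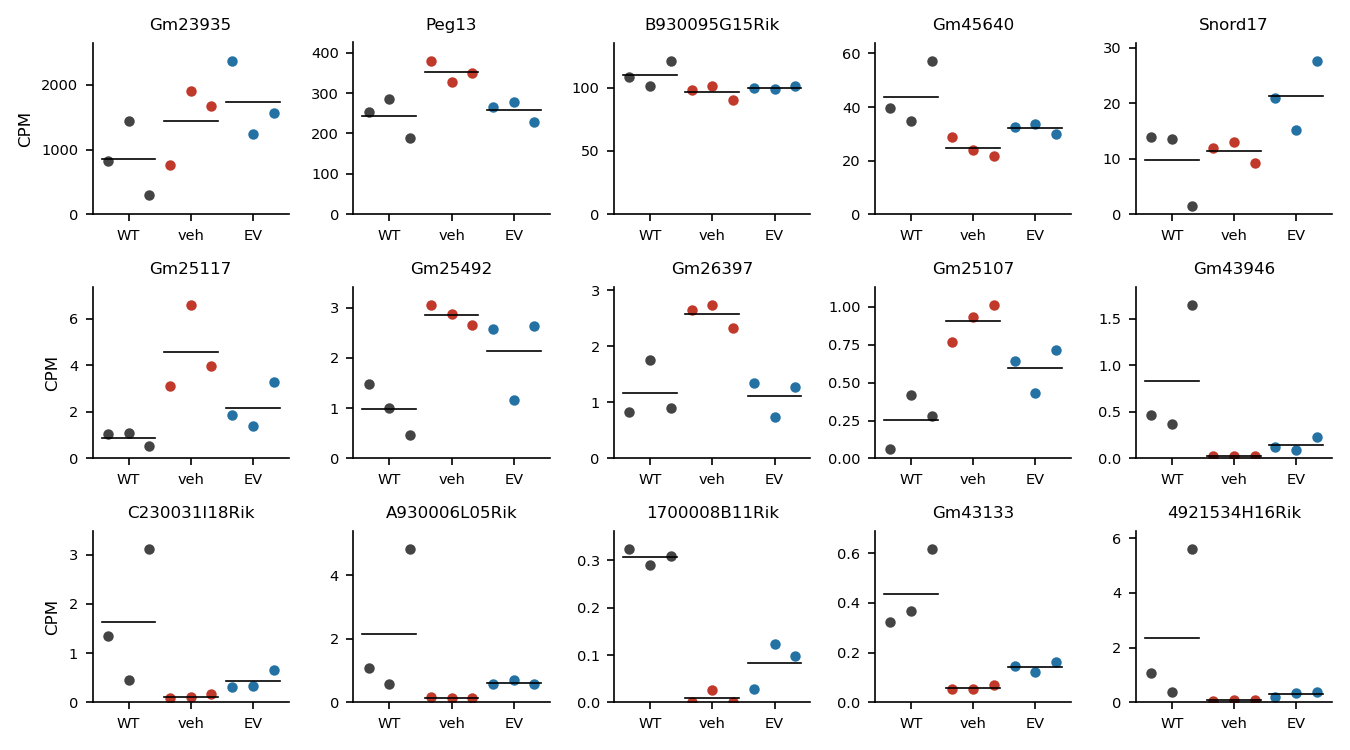
CPM in each library (points) and group mean (line) of 15 named members in WT, Rag1-/- + vehicle (veh) and Rag1-/- + WT EVs (EV) libraries, each panel with its own axis from 0. Gm43946 to 4921534H16Rik are near 0 in vehicle libraries, the means of Gm25117 to Gm25107 and Peg13 are highest there, and B930095G15Rik runs from 90.0 to 121 CPM.

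Small RNAs in the same host did not always share a pattern. Gm25395 and Scarna6, scaRNAs in introns of Atg16l1 (an autophagy protein), had 45.0, 28.9 and 59.0 CPM and 26.4, 16.7 and 7.41 CPM in WT replicates 1, 3 and 6, so that replicate 6 was the highest WT library for the first and the lowest of all 9 for the second. Snord17, in Snx5 (a sorting nexin), had 14.0, 13.6 and 1.60 CPM in WT and 9.21 to 27.6 CPM in the other groups, and was also lowest in WT replicate 6. None of these 3 passed in any comparison over all 9 libraries. Mir703, in Cfap299, stood at 1.19 to 2.19 CPM. Mir7220, inside Camk2a (a kinase of excitatory synapses), was high in WT replicate 6 and low in vehicle libraries, with 16, 9 and 75 reads in WT, 2, 2 and 1 in vehicle and 6, 5 and 13 after WT EVs (-4.24, SE 0.91, and -2.93 without WT replicate 6). It too passed the filter only through WT.

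In the 4 neuronal hosts with the most members, the members' levels and the host's were set side by side. In Kcnip4 the median member had 0.765, 0.316 and 2.78 CPM in WT and 0.1101 to 0.133 in vehicle, while Kcnip4 had 33.3, 41.6 and 30.1 CPM in WT and 45.1 to 54.2 in vehicle. Gm42770, its most read member, had 90, 34 and 454 reads, then 20, 12 and 24, then 29, 40 and 65 (-3.40, SE 0.79, edgeR adjusted p = 0.0271), against 0.51 for Kcnip4 (edgeR adjusted p = 0.0341). In Cntnap2, Gm43879 differed by -3.52 (SE 0.78, edgeR adjusted p = 0.0253) and the host by 0.54 (edgeR adjusted p = 0.0356). In Dlg2 the member and the host went the same way, with -3.79 for Gm45176 and -0.48 for Dlg2 (edgeR adjusted p = 0.0218 and 0.0284). Adgrb3 differed by 0.12 (edgeR adjusted p = 0.27), and its members Gm37895 and Gm37628 by -2.82 and -3.78 (edgeR adjusted p = 0.0322 and 0.0251). Without WT replicate 6 Gm42770 had -1.87, Gm43879 -1.99, Gm45176 -2.30 and Gm37628 -2.10, with edgeR adjusted p from 0.0115 to 0.0346. Of the second named members, 2900064K03Rik in Kcnip4 passed there (-1.71, edgeR adjusted p = 0.0259), while Gm43889 in Cntnap2 (-1.76), B230206I08Rik in Dlg2 (-1.52) and Gm37895 (-1.17) did not (edgeR adjusted p = 0.0553, 0.101 and 0.0553).

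Between WT EVs and vehicle, 0 of the 1049 tested members passed edgeR over all 9 libraries, 94 had an unadjusted p under 0.05, and DESeq2 called 4. Of all genes tested edgeR called 2.17% higher and 1.24% lower, and no such share is given for DESeq2. The median member difference was 1.006, and 10.4% of tested members were below 0. Every EV library was above every vehicle library in 331 members (31.6%, against 20.1% of all genes) and below in 19 (1.81% against 16.8%). Without WT replicate 6 the same comparison called 85 higher and 4 lower of 1026 (8.96% and 7.57% of all genes), and in the 6 libraries alone 90 higher and 4 lower of 495 (10.2% and 9.62% of all genes). WT libraries enter this comparison through the filter on low counts, the scaling, the adjustment and the shared estimate of the spread. Both comparisons share the vehicle libraries.

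Cell type markers moved between the same groups. The 6 excitatory neuron markers summed to 7014 to 7372 CPM in WT, 5500 to 5846 in vehicle and 6422 to 7534 after WT EVs. The 4 astrocyte markers followed the same order, with 1735 to 2174, 1266 to 1411 and 1842 to 1949 CPM. The 6 interneuron markers went the other way between WT and vehicle, with 299 to 524 and 573 to 652 CPM, and had 441 to 578 after WT EVs. The 4 oligodendrocyte markers had 1280 to 2371 CPM in WT, 1369 to 1498 in vehicle and 1632 to 2427 after WT EVs, and the 4 meningeal markers 212 to 416, 412 to 534 and 661 to 1149 CPM. Of the other 6 lists, those of striatum (36.5 to 72.8 CPM over all libraries), choroid plexus (1.96 to 6.12) and olfactory bulb were higher in every vehicle than in every WT library, and those of microglia (90.5 to 138), endothelium (76.7 to 163) and red blood cells (2.98 to 78.2) overlapped. After WT EVs the microglia and choroid plexus lists were above vehicle in every library. No marker of the 11 lists was at 0. In bulk tissue fewer cells of a type and less RNA a cell cannot be told apart. The part of cell make-up in the members' levels was not tested.

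Between WT EVs and WT, 0 members passed edgeR, 407 had an unadjusted p under 0.05 and DESeq2 called 53. Of all genes tested edgeR called 0.039% higher and 0.00557% lower, and no such share is given for DESeq2. The median member difference was -1.53, and -0.22 without WT replicate 6, where 0 passed and 66 had an unadjusted p under 0.05. EV libraries were all above WT in 14 members (1.33%, against 8.72% of all genes) and all below in 82 (7.82% against 7.73%). A p that misses the threshold does not show that the groups were alike.

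Genes that unwind or degrade excised introns and nuclear RNA were measured beside the members. Of a list of 23, with the lariat debranching enzyme, the nuclear exosome and its adaptors, 22 were tested. Between vehicle and WT, Mtrex, the helicase that feeds the nuclear exosome, was higher by 0.35 (SE 0.10, edgeR adjusted p = 0.0355) and Tfip11, a factor of intron lariat release, by 0.43 (SE 0.12, edgeR adjusted p = 0.0377). Rbm7, an adaptor of the nuclear exosome, was lower by 0.49 (log2 difference -0.49, SE 0.09, edgeR adjusted p = 0.0208), and C1d, an exosome cofactor, had -0.53 (SE 0.15, edgeR adjusted p = 0.0373). The counts of 2 higher and 2 lower stand against 6.28% higher and 9.71% lower of all genes tested and do not set the list apart. The other 18 did not pass, and the list's median was 0.04 against -0.03 for all genes tested. Rbm7 had 27.1, 28.3 and 28.5 CPM in WT, 18.8, 19.3 and 21.7 in vehicle and 25.8, 26.7 and 29.4 after WT EVs, and it was the 1 gene of the list higher after WT EVs than in vehicle (0.45, SE 0.09, edgeR adjusted p = 0.0343). Between WT EVs and WT 0 of the 22 passed, with an edgeR adjusted p of at least 0.171.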

How the data were processed

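Total RNA from prefrontal cortex was made into paired-end directional libraries and sequenced on a NextSeq500, and whether poly(A) selection or rRNA depletion was used is not given in the sources used here. Per the labels the authors aligned reads with STAR 2.7.5c to the mouse genome GRCm38 and deposited raw counts per gene from HTSeq over exons, with strand not used and a minimum quality of 10. The labels name HTSeq 0.11.1, while the study's methods name a later release. HTSeq's summary lines were kept out of library sizes and give the reads outside exons. Positions and types came from GENCODE M21, an earlier release than the authors used, which held 98.19% of the gene identifiers. No genome sequence was used, so transcript ends stood in for the planned windows around gene ends.

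Counts of all 9 libraries were scaled by TMM, filtered with filterByExpr (minimum count 10, total 15) and tested by edgeR 4.0.16 quasi-likelihood in R 4.3.3, with Benjamini-Hochberg adjustment over 17948 genes and a threshold of 0.05. Sums and ratios over members were compared by two-sided exact permutation tests in scipy 1.17.1, adjusted over 12 tests. The script was checked on simulated counts. Alternatives were DESeq2 1.42.0, other scalings and filters, a replicate block, a covariate and leaving out each library. Named members were the 10 most abundant, up to 6 per direction by smallest p, the most abundant of each small RNA type and of the top hosts, the least and most variable, and those at the read minimum. The members, lists and rules were chosen with earlier results of these data known.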

Additional observations from a re-analysis of the deposited data

How the results depend on the processing

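For vehicle against WT edgeR called 471 members, of which 95 lay on the strand opposite their hosts. In its place DESeq2 called 1102, no filter on low counts 1389 and a filter of 1 CPM 68. The 6 libraries alone gave 0, as did the covariate for reads outside exons. Leaving out 1 library gave 0 to 1119. For WT EVs against vehicle, where edgeR called 0, DESeq2 called 4, the 6 libraries alone 94, no filter 15, the 1 CPM filter 1 and the covariate 12, and leaving out 1 library gave 0 to 89. For WT EVs against WT, also 0, DESeq2 called 53 and no filter 197, and leaving out 1 library gave 0 to 345. Other scalings gave 473 and 502 calls for vehicle against WT. These are counts over members alone. Over all genes, DESeq2 called 6.01% higher and 7.38% lower for vehicle against WT, and edgeR 6.28% and 9.71%. Where no such share is given, a count does not show whether the members or all genes shifted. Fewer genes or samples enter some of these fits, and the cause of the other shifts was not tested.

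With the replicate number as a block 54 members passed for vehicle against WT, 16 for WT EVs against vehicle and 0 for WT EVs against WT. These too are counts over members alone, with no share of all genes beside them. The labels do not say that a number marks a shared litter or day, and the correlations of same-numbered libraries ran from -0.153 to 0.16, so the libraries share only a number.

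The log2 ratio of same-strand to opposite-strand reads, -0.90 for vehicle against WT and -1.009 for WT EVs against WT, turned to 0.34 and 0.0572 without small RNAs and to 0.42 and 0.186 without Gm23935. The ratio of members to outside genes for WT EVs against vehicle, -0.31, turned to 0.776 over TEC genes alone, an alternative chosen after seeing the data. Leaving out 1 library gave -0.43 to 0.15 for the share of reads and -0.29 to 0.30 for the ratio to hosts, both for WT EVs against WT, and -0.31 to 0.25 for the strand ratio of WT EVs against vehicle. None of these had passed. Of the 27 named results that passed, 0 changed direction in any alternative, where 237 of their values still passed and 205 did not. These members were named from the same data by small p, level or spread, and some passed the filter only through WT. That they kept their direction is therefore no support.

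The filter on low counts left out 2135 members, some of which were called without it. Counts without strand cannot tell the members' own RNA from unspliced host RNA, and WT replicate 6 was the highest library in 2827 of 3184 members.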
